A study of Homo sapiens with 6 samples.

Results

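The oligoadenylate synthetase family was measured through its 4 human genes, OAS1, OAS2, OAS3 and OASL, taken by gene symbol from the 60612 genes of the deposited count table. All 4 were among the 19034 genes that passed the filter on low counts. HSC-3, a cell line established from a human squamous carcinoma of the mouth, gave 3 libraries labelled as overexpressing IRF9 and 3 control libraries titled kongbai. The series text describes the unmodified cells as WT, and the controls carry no genotype label. The sources used here do not give the vector, its promoter, or whether the overexpressing cells were a pool or a clone. No label ties the 3 libraries of a group to separate cultures, so p-values here reflect library-to-library spread that may be only technical.

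OAS proteins bind double-stranded RNA, a common product of viral replication, and then join ATP into short chains of adenylates with unusual 2′-5′ bonds, called 2-5A. These chains act as messengers of the antiviral response within the cell. OAS1, OAS2 and OAS3 carry increasing numbers of synthetase units in that order, and OAS3 responds best to long double-stranded RNA. Human OASL keeps the fold of the unit but makes no 2-5A. It carries ubiquitin-like domains at its end and is known to enhance signalling by the RNA sensor RIG-I. All 4 genes are classical targets of interferon, which acts through ISGF3, a complex with STAT2 and IRF9 among its subunits that binds the interferon-stimulated response element (ISRE) in promoters.

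Total counts ranged from 61645349 to 85156099 per library. The keratinocyte markers KRT5, KRT14 and TP63 were abundant. They had 3819, 3550 and 890 CPM in IRF9-overexpressing libraries and 8542, 5126 and 927 CPM in controls (means of CPM, counts scaled to library size, n = 3 each). Of the 6 squamous markers listed, 4 were called lower (edgeR, adjusted p under 0.05), KRT5 and KRT14 among them, and TP63 was not called. EPCAM was called higher, at 167 CPM in IRF9-overexpressing libraries and 115 CPM in controls. Among all tested genes 18.2% were called lower and 19.2% higher. Of 10 leukocyte markers, 3 were at 0 in every library, MS4A1 and TYROBP among them. The summed level of the list was 102 to 109 CPM in IRF9-overexpressing libraries and 108 to 109 CPM in controls, most of it from CD68 and CD14. Of the 4 leukocyte markers tested, CD68 was called lower and 2 were not called. LAPTM5 was called higher, at 7.52 CPM in IRF9-overexpressing libraries and 3.82 CPM in controls. The 7 fibroblast markers summed to 47.5 to 51.9 CPM in IRF9-overexpressing libraries and 75.8 to 80.5 CPM in controls, with LUM at 11.3 CPM in IRF9-overexpressing libraries and 38.9 CPM in controls. Of the other fibroblast markers, COL1A1 was not called, at 33.6 CPM in IRF9-overexpressing libraries and 35.6 CPM in controls, and PDGFRB was called higher, at 1.69 CPM in IRF9-overexpressing libraries and 0.487 CPM in controls. The 5 endothelial markers summed to 1.68 to 3.10 CPM in IRF9-overexpressing libraries and 1.10 to 1.71 CPM in controls. Of the 3 endothelial markers tested, 2 were not called. CDH5 was called higher, at 1.35 CPM in IRF9-overexpressing libraries and 0.492 CPM in controls. Whether these levels play a part in the results below was not tested.

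IRF9 itself had 435, 423 and 120 CPM in the 3 overexpressing libraries and 27.6, 25.1 and 44.6 CPM in the controls. The third overexpressing library was the lowest of its group, and the groups did not overlap. The log2 fold change was 3.35 (SE 0.41, adjusted p 4.74e-05 in edgeR's quasi-likelihood test). AL136295.5, an annotated gene on the same strand that overlaps IRF9, held 111, 116 and 421 CPM in the same overexpressing libraries and 95.1, 91.9 and 74.5 CPM in the controls. Added together, these overlapping genes gave 546, 538 and 541 CPM in overexpressing libraries against 123, 117 and 119 CPM in controls, so the summed level was even within each group.

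OAS1, OAS3 and OAS2 lie next to each other on the plus strand of chromosome 12 (GRCh38, coordinates of the authors' table). OAS1 (ENSG00000089127) spans 112906783 to 112933222, OAS3 (ENSG00000111331) spans 112938444 to 112973251 and OAS2 (ENSG00000111335) spans 112978395 to 113011723. OASL (ENSG00000135114) lies on the minus strand of the same chromosome, at 121019111 to 121039242. In GENCODE release 29 the longest coding sequences have 414 codons in 6 exons for OAS1, 726 codons in 12 exons for OAS2, 1087 codons in 16 exons for OAS3 and 514 codons in 6 exons for OASL. AC004551.1, a long non-coding RNA annotated on the opposite strand across OAS1, OAS3 and OAS2, held at most 2 counts in any library. Of the 75-base words in the transcripts of each gene, 0.366% of those of OAS1 and 0.024% of those of OAS3 occur in a transcript of another gene, and none of those of OAS2 or OASL do. No word of that length is shared between members of the family.

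RefSeq promoter windows (GRCh38.p14), which run from 250 bases before to 50 bases after a gene's start, matched 2 of the 4 members, OAS1 and OAS3. OAS2 and OASL were not matched. The following stretches of 30 bases hold all GAAA pairs with 1 or 2 free bases between them found in the windows of OAS1 and OAS3. They are shown because these genes fell together here. Capitals mark the pairs.
OAS1 at chr12:112906932-112906961, plus strand, bases -30 to -1: cctcccttctgagGAAACGAAAccaacagc
OAS3 at chr12:112938318-112938347, plus strand, bases -156 to -127: gctagaaaGAAACGAAACTGAAAgcaggga
OAS3 at chr12:112938444-112938473, plus strand, bases -30 to -1: gttcggagagccgggcggGAAAACGAAAcc
Positions are counted back from the RefSeq start site, with -1 for the base before it. The authors' spans begin further upstream, so the first and the last of these stretches also lie inside the annotated genes.

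The ISRE core, searched on both strands as GAAANNGAAA, was found at 2 positions of the OAS3 window and not in the OAS1 window. It occurs in 3.57% of all 35116 promoter windows, and in 0.259% at 2 or more positions. A tighter spacing, GAAANGAAA, was added after the windows had been seen and is present once in each of the windows of OAS1 and OAS3, against 3.12% of all windows. In OAS3 it overlaps the distal ISRE core. Of 35 other interferon-stimulated genes with a window, 26 held the ISRE core and 14 the tighter spacing. These are counted once per gene over all of its windows, unlike the shares of single windows. The gamma-activated core, TTCNNNGAA, was present once in the OAS1 window, at bases -168 to -160, and in 7.66% of all windows. These matches describe letters and not binding.

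All 4 genes were lower in cells overexpressing IRF9. With TMM scaling in edgeR, OAS1, OAS2 and OAS3 were lower by slightly more than 2-fold and OASL by 1.43-fold. In every gene the 3 overexpressing libraries lay below the 3 controls. Among all tested genes 37.4% were called, 18.2% as lower and 19.2% as higher (edgeR quasi-likelihood test, adjusted p under 0.05), and 23.7% had all overexpressing libraries below all controls in CPM. Scaling by library size alone, in place of TMM scaling, gave 4742 higher and 2615 lower genes, against 3648 and 3473, and limma on log2(FPKM + 1) gave 3793 and 2090. In bulk RNA, fewer cells with a transcript and less of it per cell cannot be told apart.

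**Figure D1:**
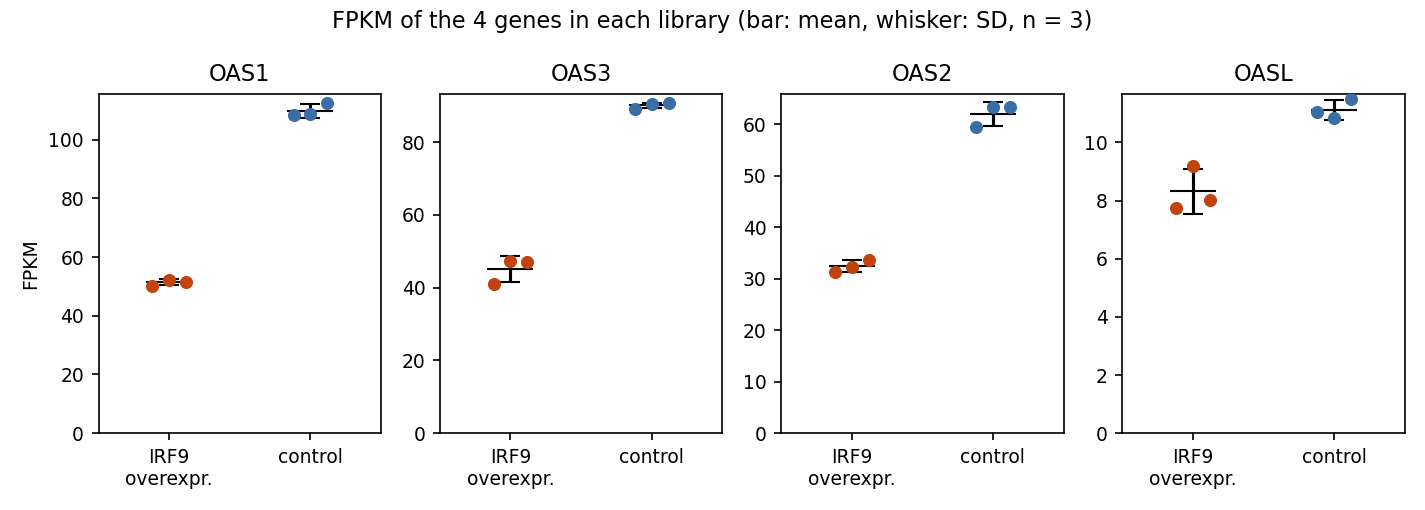
FPKM of OAS1, OAS3, OAS2 and OASL in each library, with IRF9-overexpressing libraries in orange-red on the left and controls in blue on the right of each panel; bars are means and whiskers SD (n = 3 each), and each panel has its own axis from 0. The overexpressing libraries lie between 50.3 and 52.3 FPKM for OAS1, all below the controls, and the gap is narrowest for OASL.

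OAS1, the single-unit enzyme, had 94.1, 97.2 and 96.9 CPM in overexpressing libraries against 210, 213 and 217 CPM in controls. The libraries of a group differed little, with coefficients of variation of 1.76% in overexpressing libraries and 1.54% in controls, and the groups were far apart. The log2 fold change was -1.15 (SE 0.04), with an adjusted p of 4.14e-10. Only 2.87% of tested genes had a lower log2 fold change.

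OAS3, the member with the most units, had 301, 345 and 342 CPM in overexpressing libraries and 678, 690 and 691 CPM in controls. The first overexpressing library was the lowest of all, and the overexpressing group varied more than the controls, with coefficients of variation of 7.41% and 1.09%. Counting error alone would give 0.618% and 0.458%. The log2 fold change was -1.06 (SE 0.05, adjusted p 7.30e-09), and -0.9998 without the first overexpressing library.

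OAS2, the member of middle size, had 141, 145 and 152 CPM in overexpressing libraries against 294, 312 and 305 CPM in controls. Its log2 fold change of -1.05 (SE 0.04, adjusted p 2.04e-09) was close to that of OAS3, its neighbour on the chromosome. With TMM scaling of all 6 libraries, OAS1, OAS2 and OAS3 were each lower by at least 2-fold. Of all tested genes, 2.21% were called lower by at least that size. OAS2 and OAS3 fell short of it with library size scaling, both at -0.99. On log2(FPKM + 1) they were at -0.91 and -0.98, while OAS1 stayed beyond 2-fold at -1.08 in both settings.

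OASL, the member without synthetase activity, had 27.6, 30.3 and 28.9 CPM in overexpressing libraries and 40.7, 40.3 and 43.0 CPM in controls. The highest overexpressing library stayed well below the lowest control. The log2 fold change was -0.52 (SE 0.06, adjusted p 2.56e-05), and 12% of tested genes had a lower one. At 2155 to 3064 counts per library, OASL was the least deeply counted of the 4, with a counting error of 2.09% in overexpressing libraries and 1.87% in controls.

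The levels were compared between genes per length, in FPKM. OAS1 was the most abundant member, with 51.4 ± 1.02 FPKM in overexpressing libraries and 109.9 ± 2.38 FPKM in controls (mean ± SD, n = 3 each). OAS3 followed with 45.2 ± 3.52 against 90.1 ± 0.805 FPKM, then OAS2 with 32.4 ± 1.20 against 62.0 ± 2.29 FPKM, and OASL came last with 8.32 ± 0.767 against 11.1 ± 0.335 FPKM. The order was the same in both groups, and no neighbours in it overlapped within a group. The step between OAS1 and OAS3 was the smallest, 1.14-fold in overexpressing libraries and 1.22-fold in controls, and that between OAS2 and OASL the largest, 3.90-fold and 5.58-fold. In the controls, OAS1 stood above 97.6% of tested genes in FPKM and OASL above 72.3%.

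Summed over the family, overexpressing libraries held 565, 618 and 620 CPM and controls 1223, 1256 and 1256 CPM. The sum had a log2 fold change of -1.05 (SE 0.04, adjusted p 1.37e-09 in an edgeR fit with the 4 rows added up). An exact two-sided permutation test of the summed CPM gave p = 0.1, the smallest that 3 against 3 libraries allow. OAS3, which has the longest transcript, supplied 54.8% of the family's counts in overexpressing libraries and 55.1% in controls. OASL made up 6.05 ± 0.417% of the summed FPKM in overexpressing libraries and 4.07 ± 0.0924% in controls, and the groups did not overlap. The share of OAS1 was 37.5 ± 0.952% against 40.2 ± 0.407%, also without overlap. The shares of OAS2 and OAS3 overlapped between the groups.

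**Figure D2:**
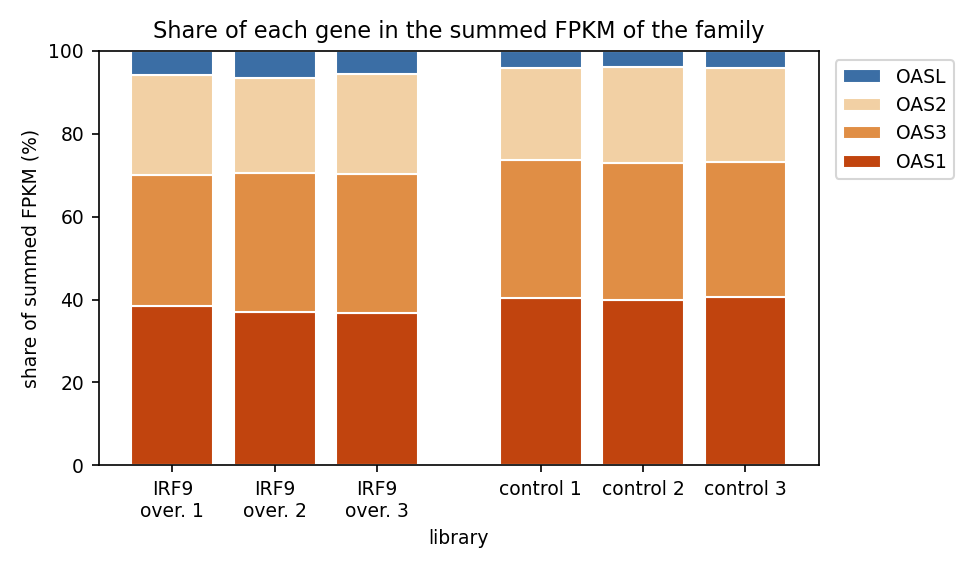
Share of each gene in the summed FPKM of the 4 members, in percent, for the 3 IRF9-overexpressing libraries on the left and the 3 controls on the right. OASL, the top segment, takes 5.70% to 6.51% in overexpressing libraries and 3.96% to 4.13% in controls.

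Whether members differed in their response was tested on the log2 ratio of the counts of each pair within a library, a value that needs no scaling between libraries. The 6 pairs were compared by exact two-sided permutation tests, whose smallest possible p is 0.1 (0.15 after Benjamini-Hochberg adjustment over the 6 pairs), so none could pass 0.05. OAS1 over OASL was 1.77, 1.68 and 1.75 in overexpressing libraries and 2.37, 2.40 and 2.34 in controls, a difference of -0.63 (SE 0.03, exact permutation p = 0.1). OAS2 over OASL and OAS3 over OASL differed by -0.54 (SE 0.06) and -0.55 (SE 0.04), each with an exact permutation p of 0.1. In all 3 pairs with OASL the groups did not overlap and lay many SE apart.

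Among the 3 synthetases the differences were smaller than with OASL. OAS2 over OAS3 was -1.09, -1.25 and -1.17 in overexpressing libraries and -1.20, -1.14 and -1.18 in controls, a difference of 0.01 (SE 0.05, exact permutation p = 0.9). The OAS1 over OAS3 ratio differed by -0.09 (SE 0.05, exact permutation p = 0.3) with overlapping groups. OAS1 over OAS2 differed by -0.10 (SE 0.03) on counts and by -0.16 (SE 0.04) on FPKM, without overlap on either scale (exact permutation p = 0.1). At this number of libraries these p-values do not show that the synthetases changed alike.

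Of 3 further 2-5A pathway genes described here, 1 was called higher and 2 were not called, beside 19.2% of all tested genes called higher. ABCE1, a ribosome recycling factor, had 104, 108 and 106 CPM in overexpressing libraries against 91.95, 96.5 and 99.98 CPM in controls (log2 fold change 0.14, SE 0.04, adjusted p 0.0228). That call was lost when single libraries were left out: the log2 fold change was 0.13 and 0.14 without overexpressing replicates 2 and 3, and 0.11 and 0.15 without control replicates 1 and 2. PDE12, a phosphodiesterase that degrades 2-5A, was at -0.15 (SE 0.09, adjusted p 0.208). AKAP7, an anchoring protein with a domain that cleaves 2-5A, was at 0.43 (SE 0.18, adjusted p 0.0802). Its value was 0.54 and passed without overexpressing replicate 2 (adjusted p 0.0362).

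Other proteins that recognise or respond to double-stranded RNA were lower in 8 of 12 cases and higher in 2. The shares over all tested genes were 18.2% lower and 19.2% higher. The median change of the 12 was -0.45 on the log2 scale. TLR3, the endosomal receptor for double-stranded RNA, had the lowest value, at 9.14 ± 0.520 CPM in overexpressing libraries and 18.1 ± 0.443 CPM in controls (log2 fold change -0.99). The RIG-I family followed, with DHX58 (LGP2) at -0.88, IFIH1 (MDA5) at -0.83 and DDX58 (RIG-I), the sensor whose signalling OASL enhances, at -0.77. Their adaptor MAVS had a log2 fold change of -0.52. EIF2AK2 (PKR), a kinase that halts translation upon double-stranded RNA, was at -0.51, the editing enzyme ADAR at -0.39 and the ubiquitin ligase TRIM25 at -0.36. In CPM, none of these 8 genes had an overexpressing library at or above a control, which held for 23.7% of all tested genes. The 8 were picked as called lower in the same libraries, so this separation adds no support.

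PRKRA, an activator of PKR, rose to 35.5 ± 1.303 CPM in overexpressing libraries, against 26.1 ± 1.46 CPM in controls (log2 fold change 0.44). ZBP1, a sensor of left-handed nucleic acids, had 1.06, 1.77 and 1.46 CPM in overexpressing libraries and 0.664, 0.797 and 0.810 CPM in controls (0.90, adjusted p 0.0336). Its call was lost in 5 of the 6 fits that left out a library, with values of 0.73 and 0.87 without overexpressing replicates 2 and 3 and of 0.81, 0.95 and 0.95 without control replicates 1, 2 and 3. ADARB1 (-0.02) and ZCCHC3 (0.13) were not called. With library size scaling, ZCCHC3 passed at 0.20 (adjusted p 0.0304 in edgeR).

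**Figure D3:**
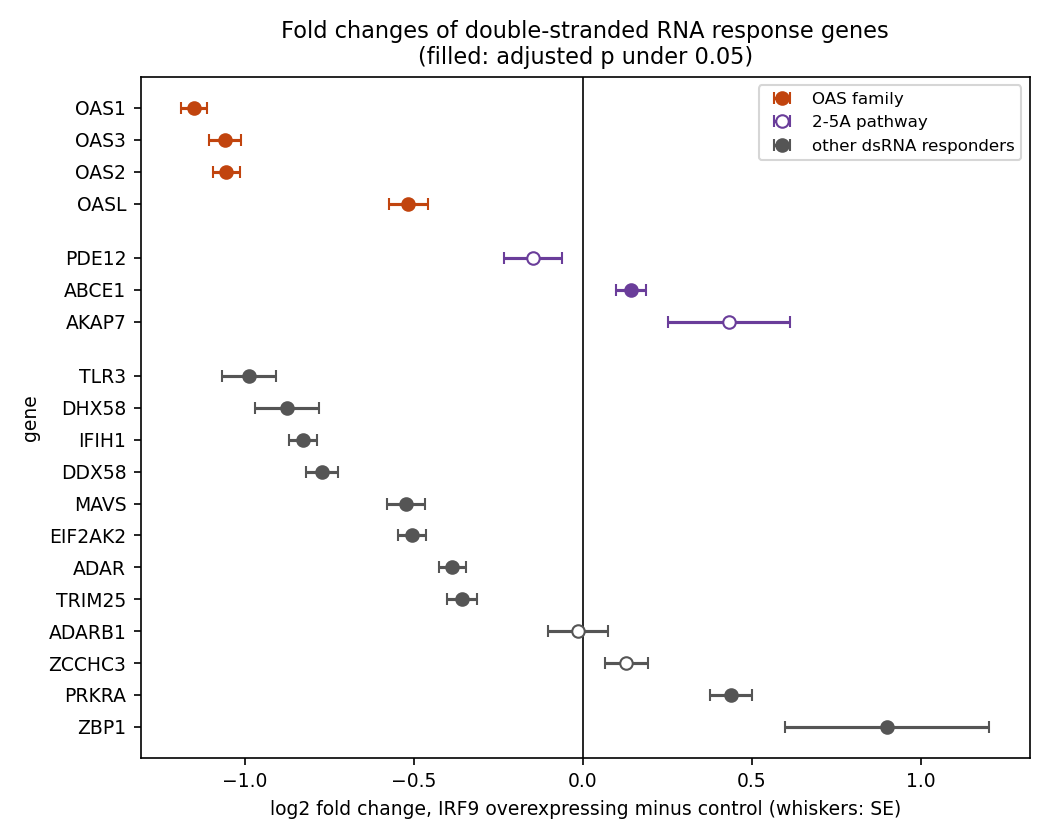
Log2 fold change of each gene, IRF9-overexpressing minus control, with SE as whiskers, for the OAS family (orange-red), 3 other 2-5A pathway genes (purple) and other double-stranded RNA responders (grey); filled circles passed an adjusted p of 0.05 in edgeR. The 3 synthetases lie between -1.15 and -1.05, left of every other gene drawn, while OASL at -0.52 lies among MAVS and EIF2AK2.

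STAT2, a partner of IRF9 in ISGF3, was lower. It had 113, 121 and 121 CPM in overexpressing libraries against 211, 209 and 209 CPM in controls (log2 fold change -0.83, SE 0.04).

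The synthetases stood near the low end of a wider list of 42 other interferon-stimulated genes, of which 39 were lower and 1 higher. Over all tested genes, 18.2% were lower and 19.2% higher. The median change of the 42 was -0.65 on the log2 scale. OAS1 had a lower fold change than 36 of the 42, OAS2 and OAS3 each than 34, and OASL than 15. The genes next to the median member in that order, whose log2 fold change was -1.06, were IRF7 (-1.05), IFIT3 (-1.04) and SAMD9 (-0.96) above it and IFI44 (-1.08), RSAD2 (-1.09) and XAF1 (-1.15) below it. IRF7 is a transcription factor of interferon genes, IFIT3 a protein of the complex that binds foreign RNA, and RSAD2 (viperin) an enzyme that makes an antiviral nucleotide. The exceptions were ISG20, an RNA exonuclease that rose (0.44, SE 0.10), and HERC5 (0.06) and BATF2 (-0.45), which were not called. Without control replicate 2, BATF2 passed at -0.55.

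**Figure D4:**
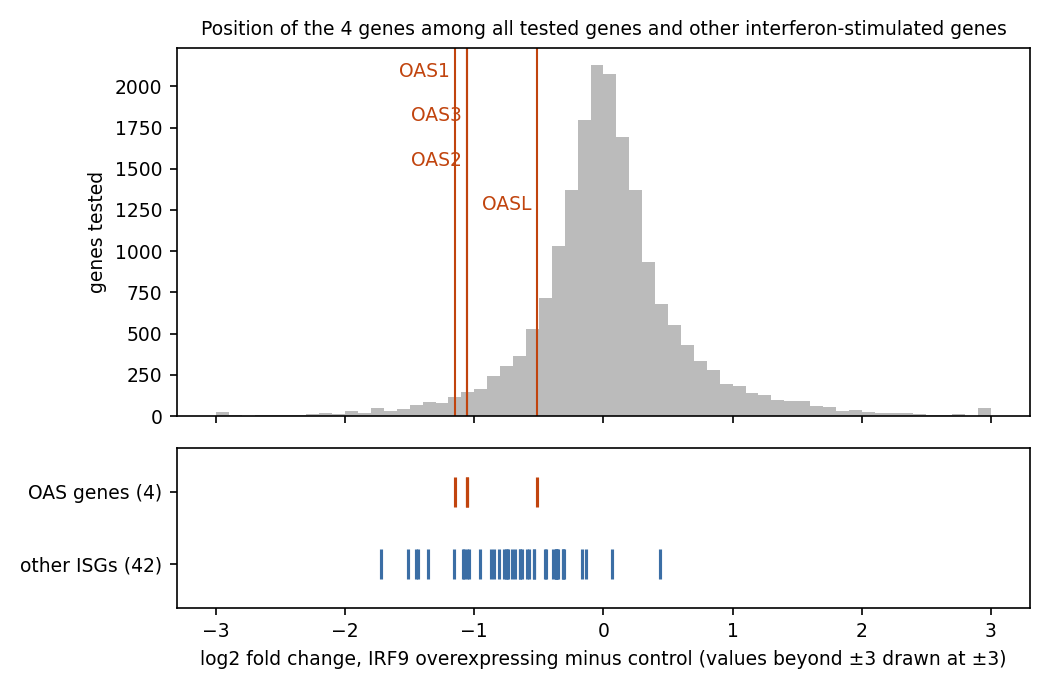
Top, number of tested genes by log2 fold change (IRF9-overexpressing minus control) in steps of 0.1, with the OAS genes as orange-red lines and values beyond 3 in size drawn at 3; bottom, one tick for each of the 4 OAS genes and each of the 42 other interferon-stimulated genes (ISGs). OAS1, OAS2 and OAS3 lie in the lower tail of all genes, and OASL lies at the lower shoulder of the distribution.

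Genes at the same chromosomal places were called in both directions, set against the 18.2% of all tested genes called lower and 19.2% called higher. Within 500 kb of OAS1, OAS3 and OAS2, 11 other genes were tested, of which 2 were lower, 5 higher and 4 not called (median 0.29 on the log2 scale). The lowest was PLBD2, at 110 ± 5.81 CPM in overexpressing libraries and 126 ± 2.95 CPM in controls (-0.20), and the highest IQCD (0.82), at 2.63 ± 0.0969 CPM in overexpressing libraries against 1.48 ± 0.245 CPM in controls. PLBD2 was not called when log2(FPKM + 1) was tested with limma (-0.14). Around OASL, 14 genes were tested, with 4 lower, 2 higher and 8 not called, and a median of -0.13. P2RX7, an ATP-gated channel, was highest, at 21.8 ± 1.55 CPM in overexpressing libraries against 11.7 ± 0.218 CPM in controls (0.89). The lowest value, -0.64 for AC069234.5, came from a transcript at 0.180 CPM in overexpressing libraries and 0.272 CPM in controls and was not called. The lowest called neighbour, RNF34, named after its value was seen, was at -0.43. No called neighbour at either place was thus lowered as much as the members beside it. In size, the rise of P2RX7 (0.89) exceeded the fall of OASL (-0.52).

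**Figure D5:**
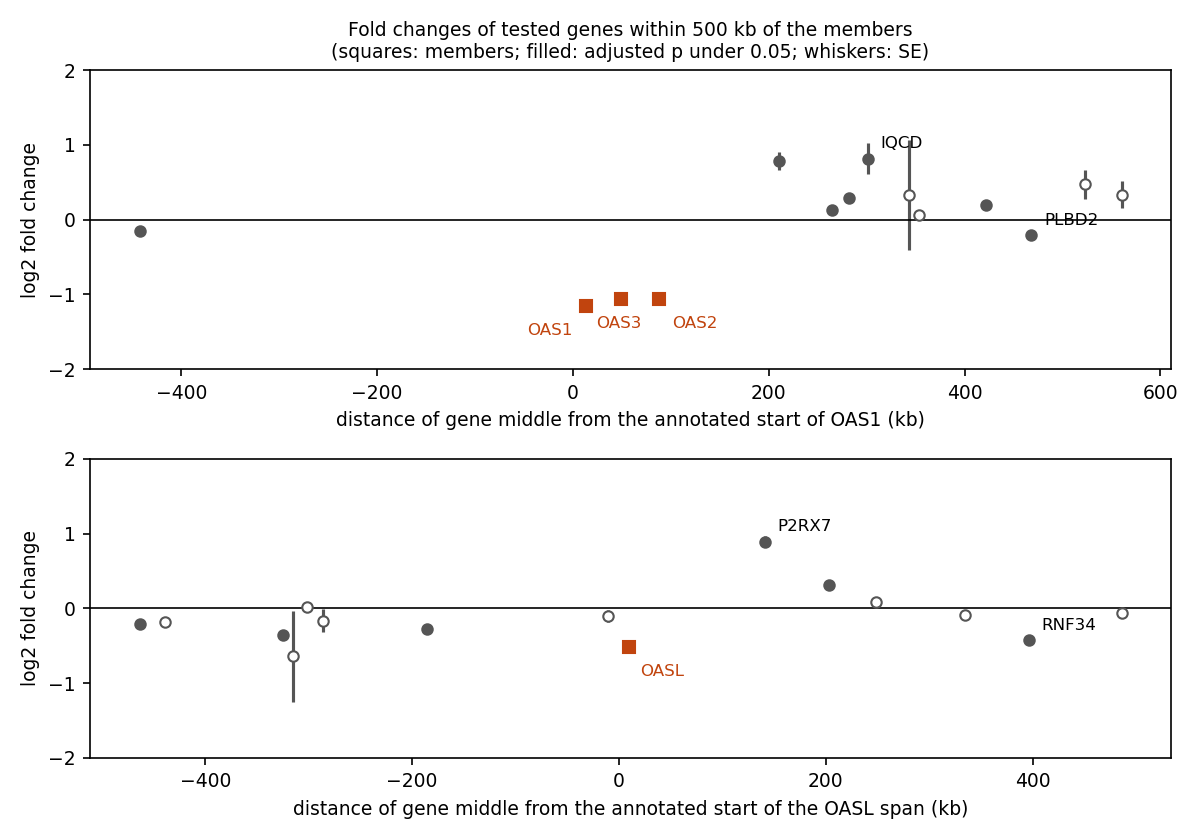
Log2 fold change (IRF9-overexpressing minus control) of tested genes within 500 kb of OAS1, OAS3 and OAS2 (top) and of OASL (bottom), against the distance of each gene's middle from the annotated start of OAS1 or of the OASL span in kb; squares are members, filled circles passed an adjusted p of 0.05 in edgeR, and whiskers are SE. The members lie below their called neighbours, from PLBD2 at -0.20 to IQCD at 0.82 in the top panel and from RNF34 at -0.43 to P2RX7 at 0.89 in the bottom one.

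Profiles over the 6 libraries were compared by the root mean square difference of centred log2 CPM, among 11362 genes of at least 5 CPM. The nearest to OAS1 were FGFR3, GYS1 and PLOD2, at 0.00944, 0.0179 and 0.0231. RSAD2, DUSP10 and PLOD2 were nearest to OAS2 (0.0346 to 0.0430), and COL5A1, IL6R and SCD to OAS3 (0.0312 to 0.0400). LINC01355, CROCC and MCC were nearest to OASL (0.0153 to 0.0263). Of these genes only RSAD2 is on the list of interferon-stimulated genes. With 2 groups of libraries, nearness by this measure largely reflects a like fold change. FGFR3, for example, had a log2 fold change of -1.14, beside -1.15 for OAS1. The pair OAS2 and OAS3 differed by 0.0483, and only 5 of the genes compared were nearer to OAS2 than OAS3 was. For OASL, the distance to the synthetases was 0.275 to 0.319.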

How the data were processed

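Per the labels' protocols, RNA was extracted with Trizol and libraries were made with an Illumina TruSeq RNA kit. Without roles, the tools StringTie, HISAT2, FastQC, Trimmomatic, edgeR and CASAVA 1.8 and the build GRCh38 are listed in the submitters' processing notes. The sources used here do not state the annotation release or the use of strand. The deposited files hold whole-number read counts for each gene, and a table by the authors of normalised values with gene names and positions that was taken as FPKM from its values. The members and the 8 other gene lists were chosen with earlier results of these data known, and support nothing by themselves.

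Gene counts went into edgeR 4.0.16 (R 4.3.3): filterByExpr (minimum count 10, minimum total 15), TMM scaling, and the quasi-likelihood fit of edgeR's newer method with group as its term over all 6 libraries. Benjamini-Hochberg adjustment ran over all 19034 tested genes, with calls under 0.05. SE values were derived from the test statistic. CPM are TMM-scaled. The common biological coefficient of variation was 0.135. Replicates differed by 9.34 to 24.3 times counting variance, so none was a copy. In counts simulated for this comparison (18516 genes tested, 50 changed at each fold), 84% of genes changed 2-fold and 76% of those changed 1.5-fold were recovered, with 7 unchanged genes among 155 calls. Far fewer genes were changed there than the 37.4% called in the data. Only genes with a mean of at least 50 counts were changed, and spread was set by the trend over all genes. These rates may therefore not hold for the data. Lists are described by counts and medians, without a set test.

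The rule for named genes takes the members, IRF9, and all of the 2-5A, double-stranded RNA and ISGF3 lists. It takes the 3 interferon-stimulated genes on either side of the members' median log2 fold change, with those not called or higher. It also takes the 3 nearest profiles of each member, the overlapping genes, and the highest and lowest neighbour at each place. Some genes of these lists are not reported here. Alternatives covered DESeq2 1.42.0, limma 3.58.1 (voom, and trend on log2 FPKM with pseudocounts of 1 and 0.1), other scalings, filters and thresholds, the replicate number as a block, sums with overlapping genes, leaving out each library and, added after the data were seen, edgeR's older quasi-likelihood method.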

Additional observations from a re-analysis of the deposited data

How the results depend on the processing

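The 4 members kept their direction and call in all 72 values from 18 alternative settings. Their log2 fold changes lay between -1.16 and -1.08 for OAS1, -1.09 and -0.91 for OAS2, -1.09 and -0.98 for OAS3, and -0.55 and -0.38 for OASL. Each was smallest in size on log2(FPKM + 1). The call of 4 lower members held in every setting. Over all named genes, 817 of 845 values kept direction and call, 17 lost the call, 6 gained it and 5 reversed. The reversals were those of ADARB1, which is not called: 0.052 with library size scaling, 0.17 on log2(FPKM + 1), 0.21 on log2(FPKM + 0.1), and -0.064 to 0.062 without single libraries.

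Higher calls among double-stranded RNA responders numbered 2, but 1 with limma-voom, without a filter, on log2(FPKM + 1), on log2(FPKM + 0.1) and at an adjusted p under 0.01, where ZBP1 dropped out, 3 with library size scaling, where ZCCHC3 gained a call, and 1 to 2 without single libraries. Higher calls among 2-5A pathway genes numbered 1, but 2 with library size scaling, 0 at an adjusted p under 0.01, and 0 to 1 without single libraries. The OAS1 over OAS2 log2 ratio differed by -0.10 on counts and by -0.16 on FPKM, a shift above 1 SD whose cause was not tested, and by -0.118 to -0.0732 on counts without single libraries.

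Deviations of same-numbered libraries of the groups had correlations of 0.131, 0.0313 and -0.0232 over 11366 genes, the first being the highest of all pairs. So few values cannot settle whether same-numbered libraries were handled together. With the replicate block, the family sum had a log2 fold change of -1.05, all 4 members stayed lower, and 3799 higher and 3659 lower genes were called, against 3648 and 3473; BATF2 gained a call (-0.47). Overexpressing replicates 2 and 3 did not correlate best with their own numbers (0.0943 with control replicate 3 and 0.0484 with control replicate 2).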
